A study of Mus musculus with 27 samples.

Results

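In RNA-seq of mouse liver, 161 of 111462 transcripts listed in each library stood highest in a hepatocyte knockout of Acly after ischemia-reperfusion (IR) surgery. They were chosen on deposited TPM, a transcript level corrected for transcript length and library size. The lowest of the 4 knockout IR libraries had to lie above the highest of the other 12. The knockout IR mean also had to be at least 3 times the highest mean of the other groups, and at least 2 TPM.

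Livers of wild-type (WT) and Alb-cre:Aclyf/f (KO) mice were sampled, with 4 libraries each after sham surgery (WT sham, KO sham) and after IR surgery (WT IR, KO IR), all taken 24 hours after surgery. In the KO, the albumin promoter drives Cre recombinase, which targets Acly in hepatocytes. Whether the other cells of the liver keep Acly was not checked here. The sources used here give neither the age of the mice nor whether WT mice carried the floxed allele. The RNA samples are titled sham or IR, while their treatment field carries the words used for the cultured hepatocytes of the series. The design text of the series calls the tissue "broader zone", and which part of the liver was sampled is not clear from it. No label states that each library is a different animal, and p-values therefore measure only the spread among libraries, which may be technical.

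ATP citrate lyase (ACLY) cleaves citrate in the cytosol and the nucleus and releases acetyl-CoA, the building block of fatty acids and cholesterol and the acetyl donor for histones. In IR injury, liver cells are first starved of oxygen and are then exposed to oxidants and infiltrating immune cells when blood returns. At 24 hours such tissue holds dying, surviving and regenerating hepatocytes together with inflammatory cells. In bulk tissue, more cells of a type and more RNA per cell cannot be told apart.

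The files identify transcripts by Ensembl transcript IDs and do not pair them with genes. For this reason the transcripts are described by their levels, no gene list or cell type marker could be looked up, and neither the liver identity nor the loss of Acly was checked here. The transcripts of highest mean and of highest ratio are given by ID, and the others by their rank in KO IR level.

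The 161 transcripts were rarely silent outside KO IR and were mostly of low to moderate level. Their KO IR means ran from 2.02 to 4270 TPM with a median of 5.94. Of the 161, 75 lay under 5 TPM, 58 over 10 TPM and 13 over 100 TPM. The median of the WT sham means was 0.687 TPM, that of KO sham 0.667 TPM and that of WT IR 1.05 TPM. The ratio of the KO IR mean to the highest other mean had a median of 4.4 and a quartile range of 3.55 to 7.54. It was under 5 for 93 transcripts and over 10 for 32. These values chose the transcripts and are a description only.

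By the level outside KO IR, the ratios were as follows, in part fixed by the rule: with a KO IR mean of at least 2 TPM, a highest other mean under 0.1 TPM gives a ratio over 20 in every case. For 5 transcripts whose highest other mean was under 0.1 TPM, the ratio ran from 22.8 to 240 with a median of 50.6. For 72 transcripts between 0.1 and 1 TPM the median ratio was 5.23, and for 68 between 1 and 10 TPM it was 3.91. For the 16 transcripts over 10 TPM elsewhere it was 3.7, with a highest value of 10.2. These 16 were thus present in every group and stood about 3 to 10 times higher in KO IR. Some abundant members were not among them: the member ranked 13, with a KO IR mean of 114.3 TPM, had a ratio of 25.4. Near-silence outside KO IR was limited to a few.

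**Figure D1:**
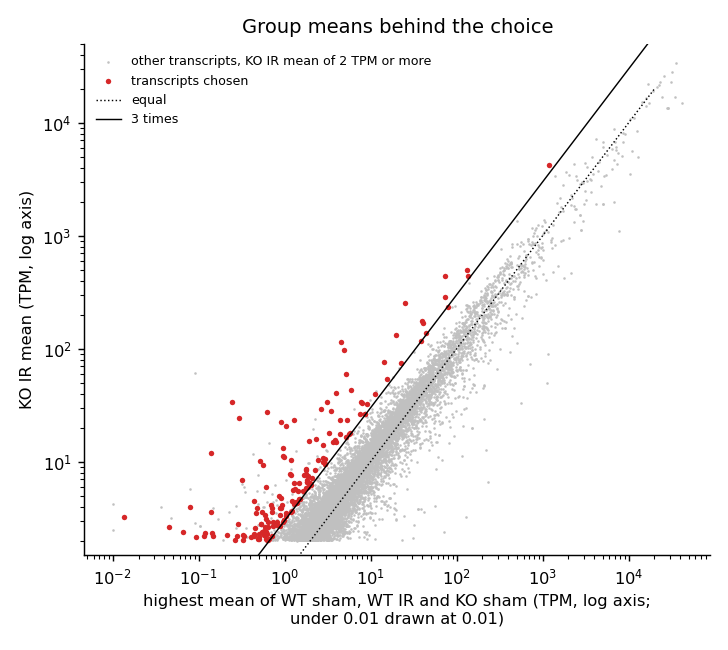
Each point is a transcript with a KO IR mean of 2 TPM or more, plotted by the highest of the WT sham, WT IR and KO sham means (x axis, TPM, log scale) and by its KO IR mean (y axis, TPM, log scale). The 161 chosen transcripts (red) lie above the solid line of a ratio of 3 and spread from 0.0134 to 1187 TPM on the x axis.

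The rule picked few of the transcripts that did not overlap between KO IR and the rest. Of 12941 transcripts with a KO IR mean of at least 2 TPM, 2305 (17.8%) had all 4 KO IR libraries above all 12 others, and 161 of these (6.99%) also reached the ratio of 3. The 3 members just inside the limit had ratios of 3.01, 3.01 and 3.02, and the 3 transcripts just outside it 2.94, 2.97 and 2.97, so the edge of the group is arbitrary. The same rule with another group in the place of KO IR picked 0 transcripts for WT sham, 1 for WT IR and 1 for KO sham.

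Together the 161 transcripts made up 0.674% to 1.13% of all TPM in the KO IR libraries. They made up 0.136% to 0.331% in WT IR, 0.102% to 0.157% in KO sham and 0.0825% to 0.227% in WT sham. Much of this came from 1 transcript. Without it the share was 0.343% to 0.647% in KO IR, 0.0745% to 0.117% in WT IR, 0.0677% to 0.0816% in KO sham and 0.0674% to 0.0793% in WT sham.

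The median level of the 161 transcripts was 6.02, 8.23, 4.02 and 4.11 TPM in KO IR libraries 1 to 4. It was 1.28, 0.88, 1.2 and 0.751 TPM in WT IR libraries 1 to 4. The 4 WT sham libraries had medians of 0.538 to 0.784 TPM and the 4 KO sham libraries of 0.61 to 0.76 TPM. KO IR stood apart from all 12 others by the rule, and among those WT IR libraries 1, 2 and 3 lay above every sham library while WT IR 4 lay within the sham range. At 1 TPM, between 156 and 161 of the transcripts were exceeded in a KO IR library, 68 to 96 in a WT IR library and 58 to 72 in a sham library of either genotype.

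**Figure D2:**
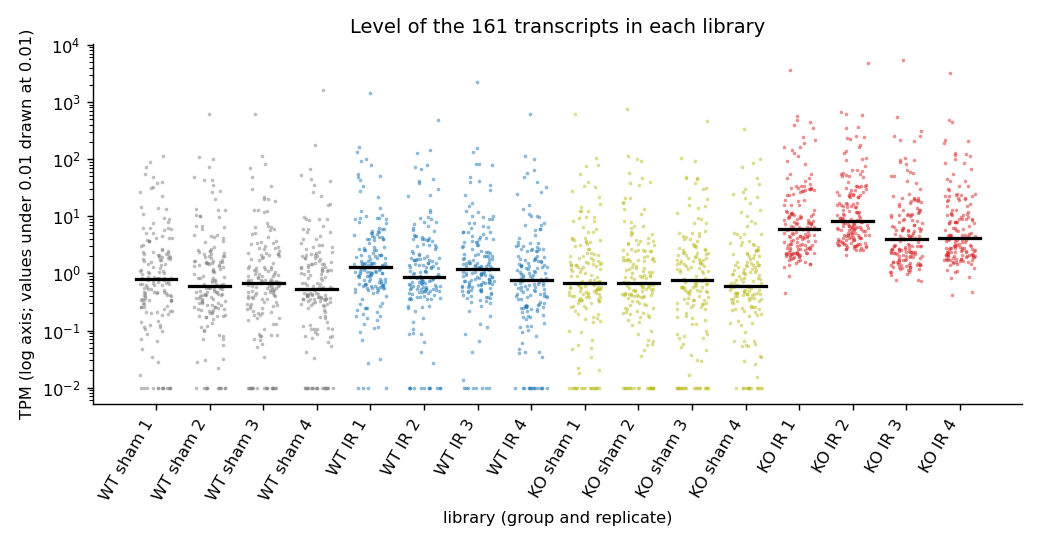
TPM (y axis, log scale, values under 0.01 drawn at 0.01) of each of the 161 transcripts in each of the 16 libraries (x axis), with the median as a black bar. Medians are 4.02 to 8.23 in the 4 KO IR libraries, 0.751 to 1.28 in WT IR and 0.538 to 0.784 in the sham libraries of both genotypes.

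KO IR libraries differed from each other, and library 2 held the highest values. KO IR 2 was the highest of the 4 for 127 of the 161 transcripts, while it was the highest for 42.6% of the other 12780 transcripts that reach 2 TPM in KO IR. It was the lowest for 0 of the 161, whereas KO IR 3 was the lowest for 100 and KO IR 4 for 46. Among the other transcripts, KO IR 2 was the lowest for 14.3%, KO IR 3 for 26.2% and KO IR 4 for 43.7%. Relative to a transcript's own KO IR mean, the median value was 1.02 in library 1, 1.45 in library 2, 0.66 in library 3 and 0.764 in library 4. Among the other transcripts these medians were 1.03, 1.07, 0.976 and 0.913. One order of libraries, 2 above 1 above 4 above 3, was seen in 64 of the 161 transcripts (39.8%) and in 9.84% of the others. The median coefficient of variation over the 4 libraries was 41.3%, against 16% for the others.

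**Figure D3:**
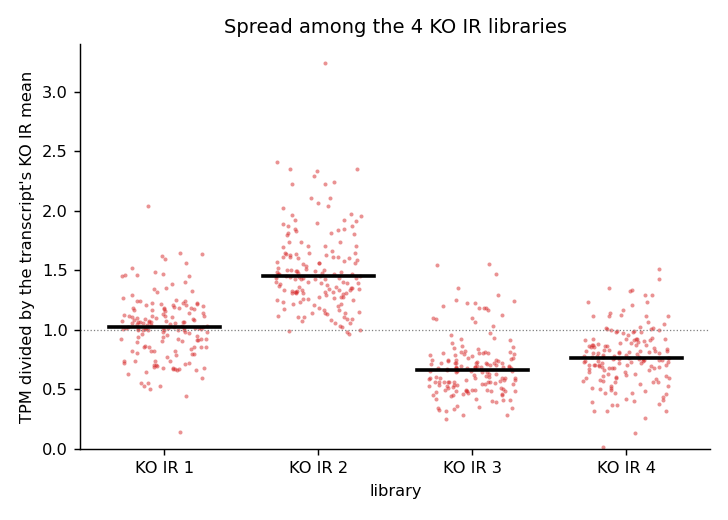
TPM of each of the 161 transcripts in each KO IR library divided by its mean over the 4 (y axis), with the median as a black bar. Library 2 lies highest with a median of 1.45, and libraries 3 and 4 lie at 0.66 and 0.764.

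For 15 transcripts a single KO IR library held more than 50% of the KO IR sum, and in 14 of these it was library 2. The share of the other transcripts with such a library was not computed. The ratio to the highest other mean had a median of 6.63 in KO IR 2 alone, 4.74 in KO IR 1, 3.4 in KO IR 4 and 3.05 in KO IR 3. Totals of estimated counts were 37787856, 37900290 and 38222182 in KO IR 1 to 3 and 44348822 in KO IR 4, against 42802889 to 44597703 in the other 12 libraries. The TMM factors, which scale for differences in composition between libraries, were 1.08 to 1.2 in KO IR and 0.864 to 1.02 elsewhere. The part of depth or composition in the levels was not tested. With TPM divided by these factors, 100 transcripts passed the rule, all of them among the 161.

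With a KO IR library left out of the choice, its own values did not enter the rule. The 12 libraries it was set against did, so these shares are a description and no independent test. Without KO IR 1 the rule picked 165 transcripts, and 162 of them (98.2%) had KO IR 1 above all 12 other libraries, against 44.2% of the transcripts with a KO IR mean of at least 2 TPM that were not picked. Without KO IR 2 it picked 106, of which 103 (97.2%, against 48.6%) were above in KO IR 2. Without KO IR 3 it picked 212, of which 192 (90.6%, against 35.0%) were above. Without KO IR 4 it picked 280, of which 190 (67.9%, against 27.4%) were above. In each case the left-out library was above the controls more often for picked transcripts than for the rest, and least often in KO IR 4.

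The size of the elevation was less even. In the left-out library the median ratio to the highest other mean was 4.52 for KO IR 1 and 7.15 for KO IR 2, but 2.55 for KO IR 3 and 2.29 for KO IR 4, whereas the 3 choosing libraries gave medians of 4.31 to 4.65. A ratio of 3 was reached in the left-out library by 76.97% of the picked transcripts for KO IR 1, 97.2% for KO IR 2, 39.2% for KO IR 3 and 34.3% for KO IR 4.

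The response of these transcripts to IR in WT liver was read without the KO IR libraries. The rule had also used the WT IR and WT sham values, as levels that KO IR had to exceed. What follows is therefore a description and no independent test. In WT liver, 8 of the 161 rose after IR and 0 fell (edgeR quasi-likelihood test, adjusted p under 0.05). Of all 33854 transcripts tested, 1.11% rose and 0.928% fell. Only 138 of the 161 passed the low-count filter once KO IR was left out, and 23 were not tested. The 0 falls compare with 34 members of either direction at an unadjusted p under 0.05. The share of all transcripts at that unadjusted p was not computed, so the 34 have no background here. DESeq2 called 1 fall and 11 rises among the members, and it called 2.77% of all transcripts as risen and 2.72% as fallen.

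Most of the 161 leaned upward in WT as well. The WT IR mean was above the WT sham mean for 138 of 161 (85.7%), against 61.6% of the other transcripts that reach 2 TPM in KO IR. It was at least 2 times the sham mean for 38 (23.6% against 3.06%) and at most 1/2 of it for 4 (2.48% against 1.44%). All 4 WT IR libraries lay above all 4 WT sham libraries for 25 (15.5% against 8.75%), and below them for 0 (against 3.08%). The median log2 fold change over the 138 tested was 0.34, beside -0.02 over all transcripts tested, and 114 of the 138 were positive (82.6% against 47.6%). The word "only" in the working description of these transcripts therefore does not hold for the 8 called, and it is not shown for the rest.

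**Figure D4:**
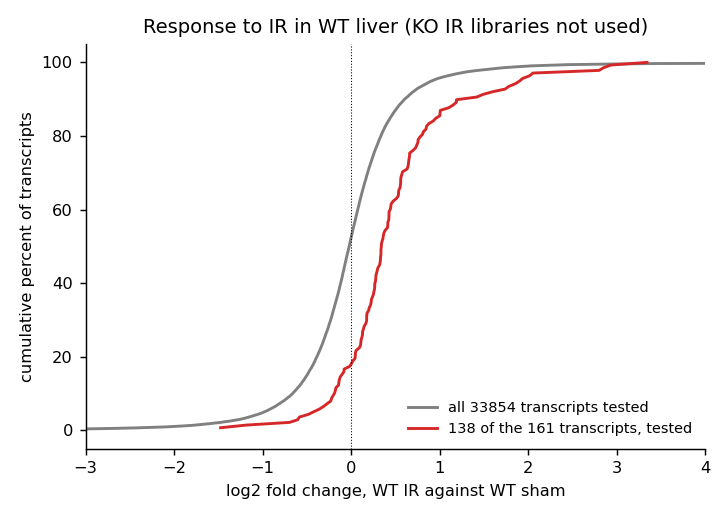
Cumulative percent (y axis) of transcripts by log2 fold change of WT IR against WT sham (x axis), for the 138 members tested (red) and all 33854 transcripts tested (grey), fitted without the KO IR libraries. The red curve lies to the right, with a median of 0.34 against -0.02.

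Among the 8, the third most abundant member, 511 bases long, was at 26.97, 27.77, 20.32 and 23.04 TPM in WT sham libraries 1 to 4 and at 90.7, 78.9, 77.5 and 48.7 TPM in WT IR. The groups did not overlap, and the log2 fold change was 1.49 (SE 0.19, adjusted p = 0.00321 by edgeR). In KO IR it stood at 444, 614, 217 and 490.5 TPM, 5.97 times the WT IR mean. The member ranked 17 averaged 0.466 ± 0.221 TPM over WT sham libraries and 5.17 ± 2.94 TPM over WT IR libraries (mean ± SD, n = 4). Its log2 fold change was 3.34 (SE 0.47, adjusted p = 0.00503 by edgeR). That was the largest rise of the 8 in WT, 11.1-fold. Its KO IR libraries held 40.6, 139.7, 16.7 and 41.1 TPM, with library 2 far above the others.

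The member ranked 19 averaged 1.52 ± 0.374 TPM after sham surgery and 5.9 ± 2.27 TPM after IR in WT (log2 fold change 1.86, SE 0.28, adjusted p = 0.00794 by edgeR) and stood at 43.07 ± 10.03 TPM in KO IR. The member ranked 93 averaged 0.635 ± 0.0725 TPM after sham surgery and 1.34 ± 0.225 TPM after IR in WT (log2 fold change 1.0, SE 0.16, adjusted p = 0.0084 by edgeR) and stood at 4.4 ± 1.76 TPM in KO IR. These 4 kept their call in all 12 fits that left out 1 library. The other 4, ranked 5, 6, 75 and 151, kept it in 3, 1, 2 and 2 of the 12. Over the 8, the WT rise was 1.42-fold to 11.1-fold, and the KO IR mean was 3.27 to 11.5 times the WT IR mean. In 7 of the 8 the WT groups did not overlap.

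WT IR libraries were not uniform in this. The highest of the 12 libraries outside KO IR was a WT IR library for 112 of the 161 transcripts, against 43.7% of the others that reach 2 TPM. It was WT IR 1 for 66, WT IR 3 for 28, WT IR 2 for 17 and WT IR 4 for 1. Among the group means, WT IR was the highest of the 3 for 119 transcripts, KO sham for 31 and WT sham for 11, where the other transcripts gave 53.4%, 25.2% and 21.4%.

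After sham surgery no member passed the test between genotypes. The sham values had also entered the rule, as levels that KO IR had to exceed, so this too is a description. The edgeR test called 0 of the 161 in KO sham against WT sham, with 138 tested, 9 at an unadjusted p under 0.05 and 0 by DESeq2. For the 9, too, no share of all transcripts at the unadjusted p was computed. Of all transcripts tested, 0.00295% rose and 0.0% fell by edgeR, and 0.0473% rose and 0.0354% fell by DESeq2. The KO sham mean was above the WT sham mean for 81 of 161 (50.3%), against 51.4% of the others that reach 2 TPM in KO IR, and the median log2 fold change over those tested was 0.05. The group means differed by at least 2 times for 13 upward and 16 downward. The share of the other transcripts with such a difference was not computed. Some of the means rest on few reads: 14 members had 3 or fewer estimated counts summed over KO sham, and 7 over WT sham. A call of 0 does not show that the levels were equal.

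The comparisons with KO IR used the values that chose the transcripts and are given as a description. In edgeR over all 16 libraries, 159 of the 161 passed the low-count filter. KO IR was higher than KO sham in 137 (5.84% of all transcripts tested were called higher) with a median log2 fold change of 2.28. It was higher than WT IR in 114 (2.22% of all) with a median of 1.9. Both comparisons called 112. DESeq2 called 142 against KO sham (8.22% of all) and 139 against WT IR (4.58% of all). The 45 tested but not called against WT IR had adjusted p-values of 0.0523 to 0.559 by edgeR. Their median log2 fold change was 2.0, against 1.89 for the 114 called. The rule set a lower limit to the size in both sets, so this likeness was in part fixed in advance. The KO response minus the WT response passed the test in 23 (0.144% of all transcripts were called higher) with ratios of 3.04 to 18.2, and in 20 of these 23 the WT IR mean was above the WT sham mean. The interaction count depended strongly on the analysis. DESeq2 called 91 (1.45% of all called higher), and edgeR without KO IR 3 called 55 (130 of all 37541 called higher).

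The most abundant of the 161 was ENSMUST00000034585.6, 1815 bases long. It was at 3658, 4862, 5342 and 3216 TPM in KO IR libraries 1 to 4, at 1423, 474, 2242 and 610 TPM in WT IR, at 604, 750.5, 467 and 340.4 TPM in KO sham and at 31.95, 623, 607 and 1587 TPM in WT sham. The KO IR libraries did not overlap with the rest, but WT libraries spread widely, and WT sham 1 lay far below the other libraries. The KO IR mean was 3.6 times the WT IR mean and 7.9 times the KO sham mean. In spite of the gap, KO IR against WT IR was not called (log2 fold change 1.6, SE 0.73, adjusted p = 0.279 by edgeR), while KO IR against KO sham was (2.64, SE 0.75, adjusted p = 0.0352 by edgeR). In WT, IR against sham gave 0.66 (SE 0.8, adjusted p = 0.852 by edgeR), with 0.17 without WT IR 3 and 1.38 without WT sham 4.

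The second most abundant, 494 bases long, was at 563, 676, 549 and 209.1 TPM in KO IR libraries 1 to 4. The other 12 libraries lay between 69.3 and 174.8 TPM, so KO IR 4 came closest to them. Its log2 fold change against WT IR was 1.67 (SE 0.28, adjusted p = 0.005 by edgeR). In WT, IR against sham gave 0.13 (SE 0.2, adjusted p = 0.898 by edgeR).

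The highest ratio, 240, belonged to ENSMUST00000031326.9, 1016 bases long and listed at 0 in all 8 sham libraries. In KO IR it was at 0.449, 10.4, 1.58 and 0.416 TPM, and in WT IR at 0.0266, 0.0268, 0 and 0 TPM. Library 2 supplied most of the KO IR mean. Over the group, 395 estimated counts in KO IR stood against 2 in WT IR, a ratio of 220 by library totals (95% counting interval 60.4 to 1821). Against the 0 counts of each sham group, and with a floor of 3 counts over the group, KO IR was at least 144-fold higher than WT sham and at least 145-fold higher than KO sham. These intervals and bounds cover counting error only. Without KO IR 2 the KO IR mean was 0.816 TPM, and the ratio of TPM means was 61.1.

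The second highest ratio, 140, belonged to a transcript of 495 bases at 53.9, 39.5, 41.4 and 0.463 TPM in KO IR libraries 1 to 4. The other 12 libraries lay between 0 and 0.379 TPM. KO IR 4, with 6.63 estimated counts, was thus barely above the highest of them, and the transcript passed neither low-count filter and was not tested. The high ratio rested on libraries 1 to 3.

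**Figure D5:**
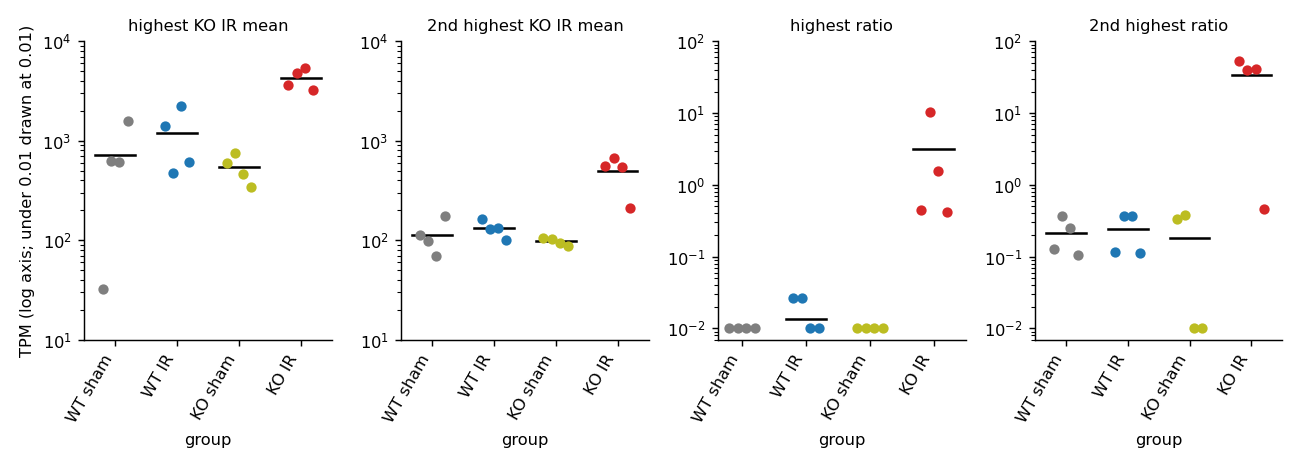
TPM (y axis, log scale, values under 0.01 drawn at 0.01) in each library of the transcripts of highest and second highest KO IR mean and of highest and second highest ratio, by group (x axis), with group means of 0.01 TPM or more as black bars. In the highest-ratio panel KO IR 2 stands at 10.4 TPM, and in the second KO IR 4 lies at 0.463 TPM, near the other groups.

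The number of reads behind the transcripts varied widely. In its lowest KO IR library a member had between 5 and 222776 estimated counts, with a median of 190, and 29 of the 161 had fewer than 50. Of the 161, 17 had 3 or fewer counts summed over at least 1 of the other groups, so their ratios are loosely bounded. Kallisto divides a read that matches several transcripts among them, which gives fractional counts. For 20 of the 161 (12.4%, against 5.62% of the others that reach 2 TPM) the counts were whole within 0.001 in all 16 libraries, and a shift of reads between transcripts does not show in these. Their median ratio was 7.14, against 4.34 for the other 141, and in 19 of the 20 the WT IR mean was above the WT sham mean. A pair of members held the same TPM as each other in all 16 libraries and cannot be separated. The 161 had a median length of 1381 bases, against 1783 for the others.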

How the data were processed

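RNA of 16 liver libraries was analysed. Per the submitters' processing notes, the authors used Trimmomatic and kallisto with build mm10. Their versions and the annotation release are not given in the sources used here. Deposited files give, per the file headers, a TPM and an estimated count per transcript. TPM served for the rule and for levels, and estimated counts, rounded to whole numbers, for tests. Tests used edgeR 4.0.16 (R 4.3.3, limma 3.58.1; TMM, filterByExpr by group, robust quasi-likelihood, Benjamini-Hochberg over all transcripts tested, two-sided, threshold 0.05). IR against sham in WT and KO against WT after sham were fitted on the 12 libraries without KO IR, and comparisons with KO IR on all 16. DESeq2 1.42.0 was an alternative. The code was tested on simulated data. Depth was 37787856 to 44597703 estimated counts per library, and no pair of libraries within a group agreed within counting noise. Members and lists were chosen with earlier results of these data known. The transcripts described singly are the 2 of highest KO IR mean, the 2 of highest ratio, and, beyond that rule and chosen after their values were seen, those called in WT. No table used here pairs transcript IDs with genes, so sequences are not shown and the CUT&RUN peak lists, gene lists and sums per gene were not used. Alternatives left out each library or the filter, divided TPM by TMM factors, or added a replicate block.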

Additional observations from a re-analysis of the deposited data

Results flagged for a closer look

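In KO IR, the transcript of highest ratio stood at 10.39 TPM in library 2, far from the other 3 libraries, which lay between 0.416 and 1.58 TPM. For normally distributed values, chance flags about 1 in 20 groups of 4 in this way, and whether these TPM are so distributed was not checked. Over the 161 transcripts, 19 were flagged so in KO IR (11.8%) and 18 in each of the other groups (11.2%). The share flagged among the other transcripts was not computed, so these counts have no background here. Library 2 was the high one in 13 of the 19 in KO IR, and WT sham 1 in 11 of the 18 in WT sham.

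The response to IR differed between the genotypes in 23 of the 161 transcripts (interaction in edgeR, adjusted p under 0.05), all with the larger rise in KO. Of all 36041 transcripts tested, 0.144% were called higher. The rule used the KO IR libraries, so the count of 23 describes the choice. KO IR 2 was the highest library in 21 of the 23.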

How the results depend on the processing

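The number of transcripts that passed the rule was 425 with a fold limit of 2, 68 with a limit of 5, 86 with a minimum of 5 TPM and 100 with TPM divided by TMM factors. It ran from 106 (without KO IR 2) to 280 (without KO IR 4) on leaving out 1 library. The 8 calls in WT were 4 with no filter on low counts, 5 with the replicate block and 4 to 7 on leaving out 1 library. Without WT sham 2, 3 or 4, WT IR 1, 2 or 3, or KO sham 4 they were 4. Without KO sham 1 or 2 they were 5. Calls over all transcripts moved too, from 689 of 33854 to 407 of 77820 with no filter and 337 of 33854 with the block. On leaving out 1 library these ran from 282 of 35129 (without WT IR 2) to 959 of 35209 (without WT sham 1). The 23 interaction calls were 13 with the replicate block and 91 by DESeq2, and 13 to 55 on leaving out 1 library. They were 15 without WT IR 2 or KO IR 2, 13 without WT IR 4, 14 without KO sham 2 or 3 and 55 without KO IR 3. Of all 36041 transcripts, in either direction, edgeR called 119, or 35 with the block, and DESeq2 called 1085. The edgeR calls over all transcripts were 51 of 37630 without WT IR 4 and 378 of 37541 without KO IR 3. Replicate numbers showed no sign of pairing in these values. Deviations from group means had correlations of -0.066 to 0.042 between same-numbered libraries (24 pairs). Between different-numbered libraries (72 pairs) they were -0.057 to 0.078, and 2 of 16 libraries correlated best with their own number. Such correlations cannot show that the design was unpaired. The WT log2 fold change of the second most abundant transcript was -0.036 without WT sham 3 and up to 0.37 without WT sham 4. The call of the highest-ratio transcript against WT IR was lost with no filter (adjusted p = 0.0619 by edgeR) and without KO IR 2 or any 1 WT IR library (0.0853 to 0.11). The cause of these shifts was not tested. DESeq2 called 12 in WT, 1.5 times the 8 of edgeR, and 1859 of all 33854 transcripts, against 689 by edgeR. The counts for KO IR against KO sham and against WT IR moved by less than 1.5 times in every alternative. Dividing TPM by TMM factors, chosen after seeing the data, left 136 transcripts higher in WT IR than in WT sham. Sums per gene, other transcripts of a gene and peaks were not run. Depth limits the 29 transcripts with under 50 counts in a KO IR library.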

Other observations

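Across the 161 transcripts, as across the rest, a larger response to IR in KO went with a larger response in WT. The 2 responses share no library, but the rule used the values of all groups behind them. For the 161 the correlation is therefore a description and no independent test. The Spearman correlation of their log2 ratios (pseudocount 0.1 TPM) was 0.536 over the 161 and 0.497 over the other 12780 transcripts that reach 2 TPM in KO IR. These are correlations across transcripts, which are not independent replicates and share library composition, and the value of the 161 was close to that of the rest. The median log2 response was 2.48 in KO and 0.41 in WT for the 161, and 0.38 and 0.09 for the others.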
